A study of Homo sapiens with 18 samples.

Results

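The annexins measured here were the 8 genes ANXA1, ANXA2, ANXA3, ANXA4, ANXA5, ANXA6, ANXA7 and ANXA11, taken by gene symbol from 19289 symbols in the expression table. They were read by 9 of 21111 detector probes, because ANXA5 had a pair of probes. Triple-negative breast cancer (TNBC) cells of the lines BT549, Hs578T and SUM149PT were transfected with 50 nM of a pool of siRNAs against ASAP1, an Arf GTPase-activating protein (siASAP1), or with a control pool made of kinase siRNAs (siCtrl), and were lysed after 72 h for TempO-Seq. TempO-Seq ligates a pair of short detector oligos on each transcript and counts the ligated product, so each value stands for a short stretch of 1 transcript and levels of different genes are not comparable. BT549 and Hs578T are described as mesenchymal-like and SUM149PT as basal-like, and each of the 6 groups had 3 biological replicates, so that 18 libraries were compared. Each library is the lysate of a whole culture, in which fewer cells with a transcript and less of it per cell cannot be told apart.

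Annexins are cytosolic proteins that bind acidic phospholipids when calcium rises, through a conserved core of repeats, and that differ mainly in their N-terminal tails. They take part in membrane repair, vesicle traffic and the organization of membranes and actin. ANXA1 is also known as a glucocorticoid-induced mediator that restrains phospholipase A2 and signals through formyl peptide receptors, and ANXA5 is known as the protein used to stain exposed phosphatidylserine. The comparisons below give the change of each annexin after siASAP1 and ask how far the change of ANXA1, which was known from earlier work on these data, was shared by the others.

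By the GENCODE release 29 annotation of GRCh38, ANXA1 is a protein-coding gene on the plus strand of chromosome 9 between positions 73151757 and 73170393, and its coding transcripts have up to 13 exons. ANXA2 lies on chromosome 15 (60347134 to 60402883, minus strand), ANXA4 on chromosome 2 (69644425 to 69827100, plus strand) and ANXA6 on chromosome 5 (151100712 to 151157882, minus strand). ANXA3 (78551519 to 78610451, plus strand) and ANXA5 (121667955 to 121697113, minus strand) are both on chromosome 4, and ANXA7 (73375101 to 73414076) and ANXA11 (80150889 to 80205572) are both on the minus strand of chromosome 10. ANXA6, which carries a duplicated core, has up to 26 exons, against 13 to 17 in the others. The position of each probe on its transcript is not given in the sources used here.

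The 250 bases before the RefSeq transcription start are shown for ANXA1 and ANXA3, since these were the annexins that passed the limits for a change after siASAP1. They are on the plus strand of GRCh38.p14, at chr9:73151615-73151864 for ANXA1 and chr4:78551520-78551769 for ANXA3. Capitals mark matches on either strand to TATAAA or CCAAT. The GENCODE gene model of ANXA1 begins within its window. That of ANXA3 begins at 78551519, before its window, so the whole ANXA3 stretch lies inside that model.
ANXA1: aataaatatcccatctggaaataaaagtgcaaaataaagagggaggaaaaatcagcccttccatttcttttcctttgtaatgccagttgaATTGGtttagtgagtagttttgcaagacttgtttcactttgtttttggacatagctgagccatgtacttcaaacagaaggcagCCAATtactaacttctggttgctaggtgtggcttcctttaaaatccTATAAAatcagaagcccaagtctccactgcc
ANXA3: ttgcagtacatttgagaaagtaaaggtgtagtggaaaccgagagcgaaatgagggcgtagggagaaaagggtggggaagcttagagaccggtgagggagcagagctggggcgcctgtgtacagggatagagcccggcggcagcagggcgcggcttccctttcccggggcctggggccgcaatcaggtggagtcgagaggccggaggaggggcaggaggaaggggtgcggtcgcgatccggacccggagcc

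The ANXA1 window was the least GC-rich of the 8, with 38.4% G and C, against 64.0% in ANXA3, 50.0% in ANXA11 and between 65.6% and 78.8% in the other 5. Both strands were searched for the TATAAA element, the CCAAT box, the GC box GGGCGG, the AP-1 element TGANTCA and the glucocorticoid receptor half-site AGAACA, chosen with the data known. In the ANXA1 window TATAAA began at position -31 from the start and CCAAT at -160 and -77, while the other motifs had no match. TATAAA was in 3 of the 8 annexin windows (ANXA1, ANXA2 and ANXA11) and in 11.13% of all 27305 RefSeq promoters, and CCAAT in 3 (ANXA1, ANXA6 and ANXA7) and in 33.04%. GGGCGG was in 5 (ANXA2, ANXA4, ANXA5, ANXA6 and ANXA7) and in 42.31% of all, TGANTCA in 1 (ANXA2) and in 6.596%, and AGAACA in 1 (ANXA11) and in 12.44%. The ANXA3 window held none of the motifs. By the GENCODE models the windows of ANXA2 and ANXA3 lie wholly inside the genes, so they are upstream of the RefSeq start only.

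ASAP1 itself was checked first. Its normalized counts were 367, 730 and 783 after siASAP1 and 1107, 966 and 944 after siCtrl in BT549, and 782, 825 and 1261 against 1641, 1414 and 2697 in Hs578T, so that the groups did not overlap in either line. In SUM149PT they were 282, 468 and 184 after siASAP1 and 1087, 189 and 1314 after siCtrl. The library labelled SUM149PT siCtrl replicate 2 thus had as little ASAP1 as the siASAP1 libraries, against its label, and it also stood apart from the other SUM149PT libraries in several annexins. The Log2 FC of ASAP1 over the 18 libraries was -0.96 (adjusted p 0.128 from limma). Below, the Log2 FC of the annexins in SUM149PT and over the 18 libraries are given with and without that library.

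The markers matched the described types of the lines in part. The epithelial markers EPCAM (mean normalized count 25110) and KRT17 (2592) were high in SUM149PT and close to 0 in BT549 (1.01 and 0.105), and the mesenchymal marker VIM averaged 47010 in BT549, 133700 in Hs578T and 1776 in SUM149PT by 1 probe. The other VIM probe averaged 14.95, 68.8 and 0 in these lines. CDH2, also a mesenchymal marker, averaged 463 in BT549, 3976 in Hs578T and 1788 in SUM149PT, so that it was higher in the basal-like line than in BT549, and ZEB1 was at 2.53 or less in every library. KRT14 averaged at most 3.77 in a line. Of the receptor and luminal markers, PGR was at 3.38 or less in every library and 1 of the ESR1 probes at 0. The other ESR1 probe averaged 0, 8.84 and 77.7 in BT549, Hs578T and SUM149PT. In the same order ERBB2 averaged 48.3, 35.45 and 80.1, FOXA1 2.11, 68.5 and 140, and GATA3 0, 0 and 14.7. Of the leukocyte and endothelial markers CD3E and VWF were at 0 in every library and PTPRC at 2.67 or less, while CD68 averaged 24.9, 194 and 48.7 and 1 of the PECAM1 probes 0.351, 26.4 and 72.7 in BT549, Hs578T and SUM149PT, and their part in the results was not tested. Reads per library, recovered from the deposited values, ranged from 4633629 to 12488575.

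ANXA1 fell after siASAP1 in all 3 lines, to between 29.3% and 48.7% of its control level. In BT549 its normalized counts were 16130, 20550 and 17940 after siASAP1 and 79390, 35590 and 46400 after siCtrl. In Hs578T they were 24390, 36000 and 26310 after siASAP1 and 49160, 56560 and 72050 after siCtrl. In SUM149PT they were 19660, 26010 and 23290 after siASAP1 and 99640, 45060 and 105600 after siCtrl. The siASAP1 and siCtrl groups did not overlap in any line, and the lowest siCtrl value of SUM149PT was in the library that goes against its label. These values rest on 14860 to 73137 reads per library, and ANXA1 took between 0.598% and 1.43% of all reads in siCtrl libraries and between 0.264% and 0.499% after siASAP1.

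The mean of ANXA1 was 18210 ± 2218 (SD, n = 3) after siASAP1 and 53790 ± 22810 (n = 3) after siCtrl in BT549, a Log2 FC of -1.49 (SE 0.337), or 35.7% of control. It was 28900 ± 6220 against 59260 ± 11680 in Hs578T, a Log2 FC of -1.04 (SE 0.231), or 48.7% of control. It was 22990 ± 3186 against 83450 ± 33380 in SUM149PT, a Log2 FC of -1.77 (SE 0.423), or 29.3% of control, and without the siCtrl library that goes against its label the Log2 FC was -2.17. The study called a gene changed in a line at an absolute Log2 FC above 1 with p below 0.05, unadjusted, from a DESeq2 Wald test. With p from limma on the deposited log2 values in its place, ANXA1 passed these limits in each line. After adjustment 0 probes of the whole table passed 0.05 in any line by limma (754, 502 and 1025 passed it unadjusted in BT549, Hs578T and SUM149PT), and the adjusted p of ANXA1 was 0.311, 0.711 and 0.334. Without the SUM149PT library that goes against its label it was 0.0489 there. In Hs578T the Log2 FC was close to the limit of 1, and leaving out siASAP1 replicate 1 (-0.93), siASAP1 replicate 3 (-0.98) or siCtrl replicate 3 (-0.89) took it below.

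When all 18 libraries were fitted together, with a term for the line, the Log2 FC of ANXA1 was -1.43 (95% interval -1.89 to -0.98) with an adjusted p of 0.00261 from limma (-1.52 without the SUM149PT library that goes against its label), and ANXA1 was lower than the siCtrl mean of its line in 9 of 9 siASAP1 libraries. In that test 1.74% of 10475 probes had an adjusted p under 0.05, and of the 8 annexins ANXA1 was the only one with such a p. ANXA3 and ANXA6 had too few reads in some lines to show a change there. A difference of the ANXA1 change between the lines did not pass (adjusted p 0.968 for the interaction, which 0.00955% of probes passed and 0 annexins). Of 7990 probes tested in every line, 17 or 0.213% passed the limits downward in each of them, ANXA1 among them, and 4 or 0.0501% upward, with no annexin among them.

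**Figure D1:**
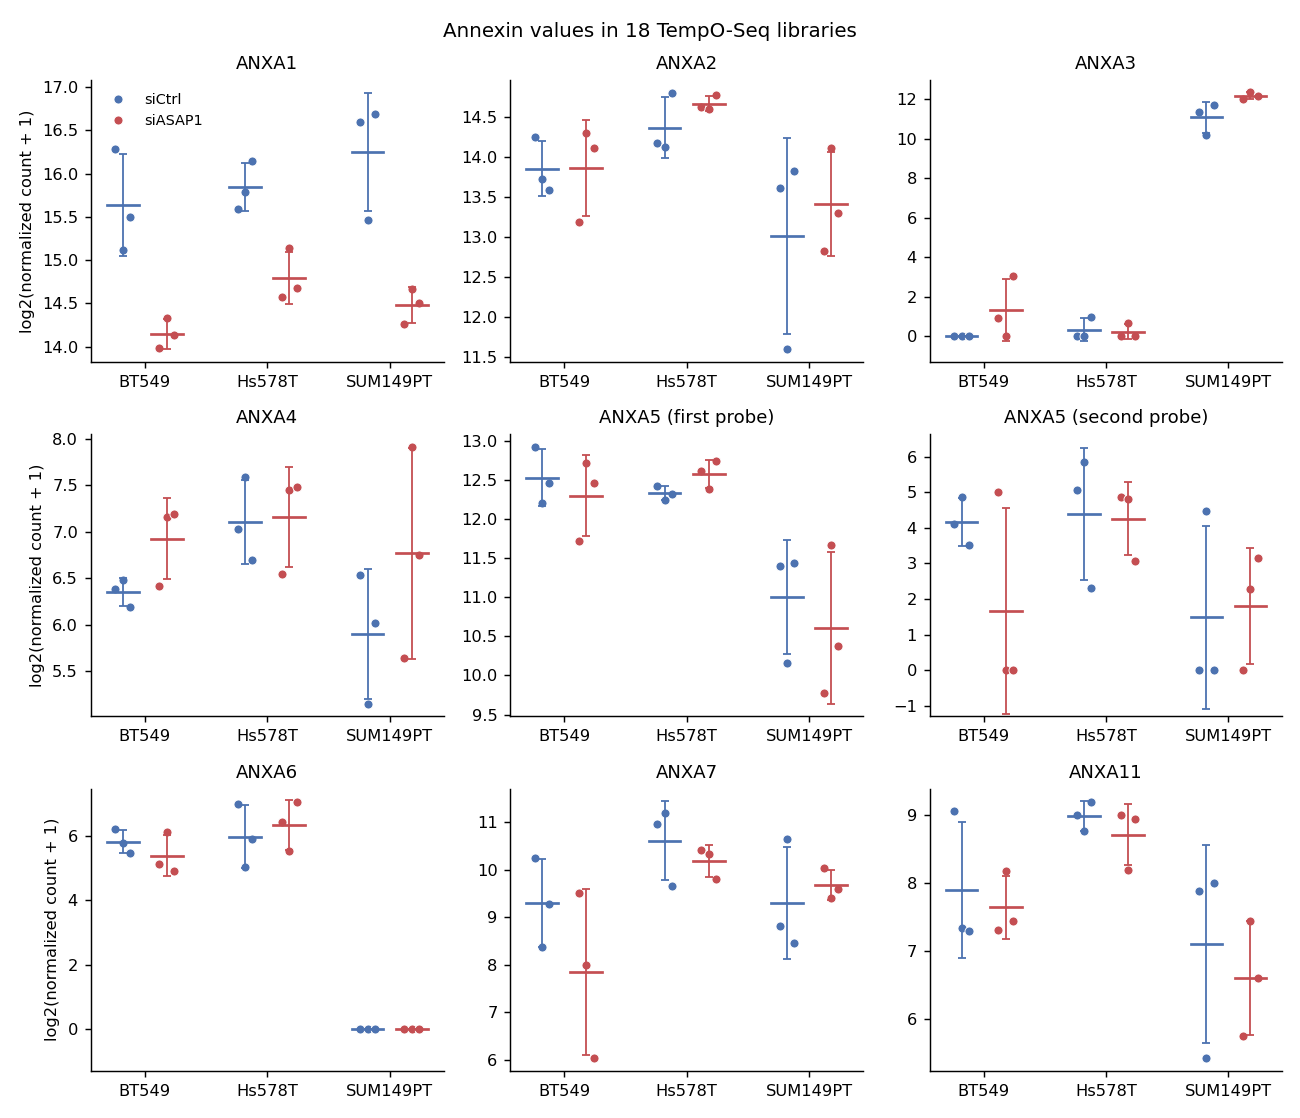
Deposited log2 values of the 9 annexin probes in 18 libraries, by cell line, with siCtrl in blue and siASAP1 in red. Points are libraries, horizontal lines are group means and bars are ± 1 SD (n = 3). The vertical scale differs between panels. ANXA1 lies lower after siASAP1 in each line, with no overlap, ANXA3 is high in SUM149PT alone and ANXA6 is at 0 there.

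ANXA2, which forms a heterotetramer with S100A10 at the plasma membrane and binds plasminogen there, gave overlapping groups in each line. In BT549 its normalized counts were 9292, 19960 and 17630 after siASAP1 and 19310, 13490 and 12320 after siCtrl, with a Log2 FC of 0.01 (95% interval -0.79 to 0.81). In Hs578T they were 25190, 24780 and 27920 against 18370, 17750 and 28520, with a Log2 FC of 0.30 (-0.22 to 0.82). In SUM149PT they were 7216, 17710 and 10090 against 12530, 3110 and 14450, and the Log2 FC was 0.40 (-1.08 to 1.88) with the library that goes against its label and -0.31 without it. That library, with 3110, was the lowest of the 18. In the joint fit the Log2 FC was 0.24 (-0.34 to 0.81), and 0.02 without that library.

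The ANXA2 value may include reads of a near-identical copy. ANXA2P2, a processed pseudogene on chromosome 9 (33624274 to 33625293), has its own probe, and of 971 windows of 50 bases in the ANXA2 coding sequence 59.2% are identical in the copy and 89.7% differ in at most 2 bases. To show how little tells them apart, the first window with the most differences is printed, at coding bases 171 to 220 of ANXA2, with the 5 differences in capitals (sequences from the GENCODE release 29 transcripts).
ANXA2: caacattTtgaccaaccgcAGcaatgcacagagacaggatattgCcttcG
ANXA2P2: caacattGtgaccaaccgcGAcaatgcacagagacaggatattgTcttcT
The ratio of the ANXA2 to the ANXA2P2 value lay between 0.69 and 1.34 over the 18 libraries, and how the reads are split between the loci was not tested. ANXA1 shares no window of 50 bases with another of the 8 genes, and its longest shared run with any of them is 20 bases.

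ANXA3, an annexin known from epithelial cells and neutrophils, was found almost only in SUM149PT and passed the limits upward there after siASAP1. Its normalized counts in SUM149PT were 4157, 5248 and 4586 after siASAP1 (mean 4664 ± 550, SD, n = 3) and 2654, 1155 and 3304 after siCtrl (2371 ± 1102). The 3 siASAP1 libraries lay above the 3 siCtrl libraries, and the lowest of the latter was again the library that goes against its label. The Log2 FC was 1.10 (95% interval 0.05 to 2.15), which passed the limits, with an adjusted p of 0.470 from limma. Without that library the Log2 FC was 0.65, under the limit of 1. The call was also lost, with a Log2 FC between 1.01 and 1.25 and a p over 0.05, when siASAP1 replicate 1, 2 or 3 or siCtrl replicate 1 was left out. In BT549 and Hs578T the probe had between 0 and 8 reads in each of the 12 libraries, and a change after siASAP1 was not tested in either line. Its joint Log2 FC of 0.77 (0.62 without the library that goes against its label) had no adjusted p under 0.05, and the probe entered that fit through its SUM149PT counts.

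ANXA4, an annexin of epithelial membranes, had overlapping groups in each line. Its normalized counts were 84.4, 142 and 145 after siASAP1 and 82.4, 88.0 and 72.2 after siCtrl in BT549, with a Log2 FC of 0.57 (95% interval -0.42 to 1.56). In Hs578T they ranged from 91.8 to 178 after siASAP1 and from 102 to 192 after siCtrl (Log2 FC 0.05). In SUM149PT they ranged from 49.0 to 240 and from 34.6 to 91.5 (Log2 FC 0.86), and without the siCtrl library that goes against its label the Log2 FC was 0.49. Jointly fitted, the Log2 FC was 0.50 (-0.15 to 1.14), or 0.36 without that library, and 7 of 9 siASAP1 libraries were at or above the siCtrl mean of their line.

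ANXA5 binds exposed phosphatidylserine and forms ordered lattices on damaged membranes. Its first probe had normalized counts of 3362, 6739 and 5638 after siASAP1 and 7751, 4749 and 5641 after siCtrl in BT549, 6247, 5327 and 6846 against 5480, 4828 and 5106 in Hs578T, and 881, 3263 and 1325 against 2710, 1142 and 2778 in SUM149PT. The groups overlapped in each line, and the Log2 FC was -0.23, 0.25 and -0.39 (-0.81 in SUM149PT without the library that goes against its label). In the joint fit it was -0.12 (95% interval -0.64 to 0.39), and -0.23 without that library. The second probe of ANXA5 gave between 0 and 69 reads per library and a Log2 FC of -0.77 over the 18 libraries (-0.43 without that library) with an interval from -2.51 to 0.96, too wide to tell a change like that of ANXA1 from none.

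ANXA6 was measured in BT549 and Hs578T. Its normalized counts were 33.8, 68.0 and 29.2 after siASAP1 and 73.6, 54.1 and 43.5 after siCtrl in BT549 (Log2 FC -0.45, 95% interval -1.67 to 0.78), and 86.1, 45.1 and 132 against 126, 31.8 and 59.1 in Hs578T (0.37, -0.93 to 1.67). In SUM149PT it had 0 reads in all 6 libraries, which allows a share of up to 6.47e-05% of the reads in the shallowest of them, for counting error only. The joint Log2 FC of ANXA6, -0.03 (-0.77 to 0.72) with or without the library that goes against its label, thus averages in a line where no change could be seen.

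ANXA7 and ANXA11 have long N-terminal tails and bind penta-EF-hand proteins such as PDCD6. Replicates of ANXA7 varied widely, with an SD of 1.01 on the log2 scale pooled over the 6 groups, against 0.42 for ANXA1. In BT549 its normalized counts were 726, 254 and 64.8 after siASAP1 and 1212, 331 and 616 after siCtrl, and the Log2 FC of -1.45 (95% interval -3.19 to 0.29) was about the size of that of ANXA1 but did not pass the limits. In Hs578T they were 1365, 1284 and 899 against 1985, 2354 and 806 (Log2 FC -0.42), and in SUM149PT 1048, 679 and 774 against 448, 1597 and 349 (0.38). Leaving out BT549 siASAP1 replicate 1 moved the BT549 Log2 FC to -2.28 and BT549 siCtrl replicate 2 to -1.91, both past the limits, and leaving out the SUM149PT library that goes against its label moved the SUM149PT Log2 FC to 1.05, also past them and in the opposite direction. Leaving out BT549 siASAP1 replicate 3 moved the BT549 value to -0.55. The joint Log2 FC was -0.50 (-1.40 to 0.41), and -0.37 without the SUM149PT library.

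ANXA11, which also tethers RNA granules to lysosomes, had normalized counts of 156, 288 and 172 after siASAP1 and 528, 160 and 156 after siCtrl in BT549 (Log2 FC -0.25). In Hs578T they were 508, 291 and 490 against 506, 433 and 584 (-0.27). In SUM149PT they were 52.9, 172 and 95.9 against 235, 41.9 and 254, and the Log2 FC of -0.50 became -1.34, past the limits, without the library that goes against its label. The groups overlapped in each line, and over the 18 libraries the Log2 FC was -0.34 (95% interval -1.07 to 0.38), and -0.57 (-1.20 to 0.06) without that library.

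In counts by line, 1 of 7 annexin genes tested passed the limits in BT549 (ANXA1, lower) beside 6.97% of all probes, 1 of 7 in Hs578T (ANXA1, lower) beside 2.78%, and 2 of 7 in SUM149PT (ANXA1, lower, and ANXA3, higher) beside 9.56%. The same genes were those whose groups did not overlap, which held for 13.9%, 12.1% and 17.3% of all probes. At these shares, 1 or 2 calls among 7 genes say little about the family as a whole. The median Log2 FC of the annexin probes was -0.35 in BT549, -0.04 in Hs578T, 0.38 in SUM149PT and -0.12 over the 18 libraries, beside -0.0015, 0.01, 0.09 and 0.02 for all probes tested. Without BT549 siASAP1 replicate 1, 3 annexin genes passed the limits in BT549 (ANXA1, ANXA5 by its second probe and ANXA7, all lower), while the number of all probes that passed rose from 674 to 2169. Without the SUM149PT library that goes against its label, 3 passed there (ANXA1 and ANXA11, lower, and ANXA7, higher), while that number rose from 963 to 2325.

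**Figure D2:**
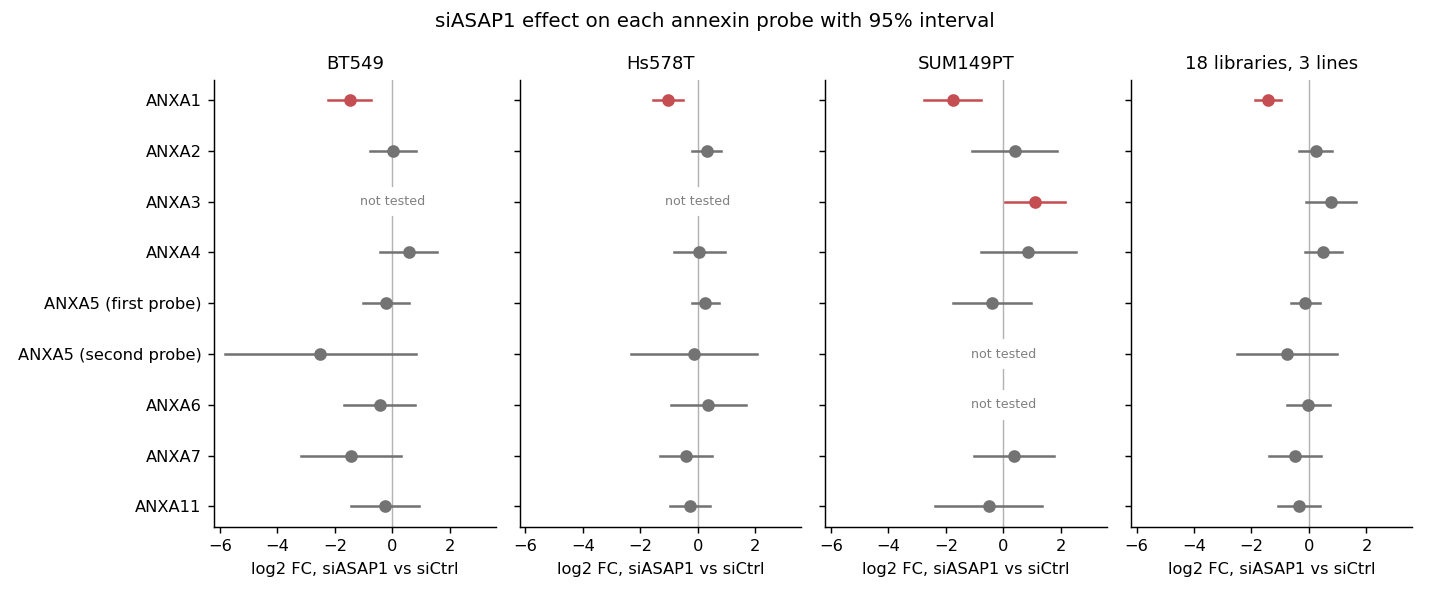
Log2 FC of siASAP1 against siCtrl for each annexin probe with its 95% interval from limma, in each cell line and over the 18 libraries. Red marks a probe past the limits of the line (absolute Log2 FC above 1 with p below 0.05) or, over the 18 libraries, an adjusted p under 0.05. ANXA1 lies left of 0 in every panel, ANXA3 right of 0 in SUM149PT, and the other intervals cross 0.

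Whether the change of ANXA1 differed from that of the other annexins was tested within libraries, as the change of the log2 difference between ANXA1 and each other probe. This removes the scaling of the library. The treatment labels were permuted in all ways within the lines in which the other probe was tested (exact permutation test, two-sided, adjusted over the 8 probes), and the test was added after the data were seen. ANXA1 was taken as the reference because its fall in these same libraries was known, and the p-values do not allow for that choice. ANXA1 fell by more than ANXA2 (difference -1.67 on the log2 scale), ANXA4 (-1.93) and the first probe of ANXA5 (-1.31), each in 9 of 9 siASAP1 libraries with an exact p of 0.00025, the smallest that the 8000 arrangements allow, and an adjusted p of 0.000667. It fell by more than ANXA11 (-1.09, lower in 8 of 9 libraries, exact adjusted p 0.002). These 4 calls were kept with each of the 18 libraries left out. Against ANXA6 the difference was -1.22 over BT549 and Hs578T (exact adjusted p 0.048), a call that was lost in 8 of 12 tests with 1 library left out and kept without BT549 siASAP1 replicate 3, BT549 siCtrl replicate 2, Hs578T siASAP1 replicate 2 or Hs578T siCtrl replicate 1. Against ANXA7 it was -0.94, lower in 8 of 9 libraries, and did not pass (exact adjusted p 0.141), except without BT549 siASAP1 replicate 3 (-1.24, exact adjusted p 0.0457). Against ANXA3 it was -2.87 in SUM149PT, where 3 libraries against 3 cannot give an exact p below 0.1. Against the second probe of ANXA5 it was 0.06 (exact adjusted p 0.965).

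**Figure D3:**
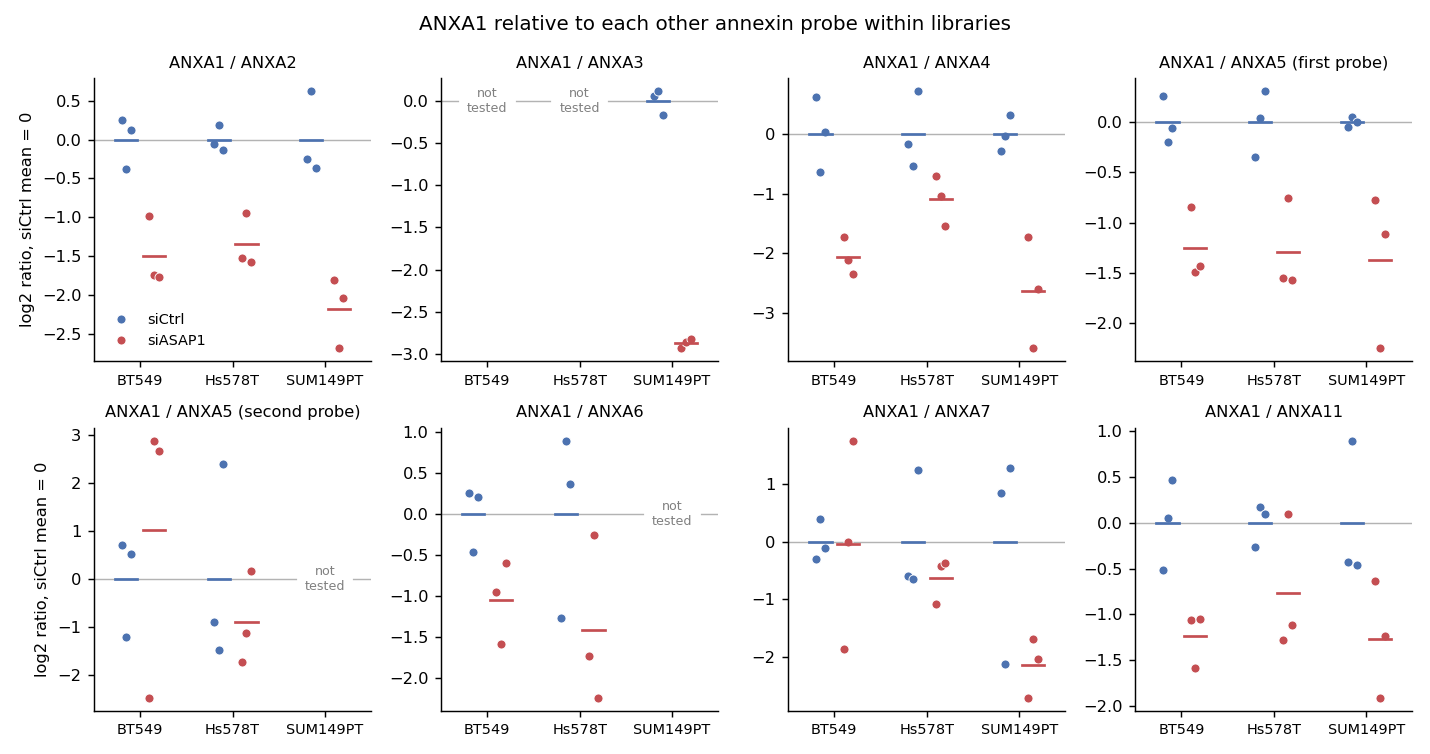
Log2 ratio of ANXA1 to each other annexin probe within libraries, with the siCtrl mean of each line set to 0. Points are libraries, horizontal lines are group means, siCtrl is blue and siASAP1 red, and the vertical scale differs between panels. The siASAP1 libraries lie below the siCtrl libraries against ANXA2, ANXA4 and the first probe of ANXA5 in every line, while against ANXA7 and the second probe of ANXA5 the groups overlap.

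Replicates of 1 group also varied together. With group means subtracted, the correlation of ANXA1 with ANXA2 over the 18 libraries was 0.805, with ANXA11 0.80 and with the first probe of ANXA5 0.652, and that of ANXA2 with ANXA11 was 0.895. Without the library that goes against its label these were 0.615, 0.627, 0.474 and 0.781. ANXA7 had a correlation of -0.626 with ANXA2, -0.243 with ANXA1 and 0.697 with the second probe of ANXA5 (-0.471, 0.105 and 0.597 without that library). These points share their libraries and are described without a test. In the library that goes against its label, ANXA2 lay 1.61 below its SUM149PT mean on the log2 scale, ANXA3 1.46 below, ANXA11 1.42 below and ANXA4 1.18 below, and ANXA7 lay 1.15 above, while ANXA1 lay 0.10 above. These means include the siASAP1 libraries, and ANXA1 in that library (45060) was below the other SUM149PT siCtrl libraries (99640 and 105600).

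**Figure D4:**
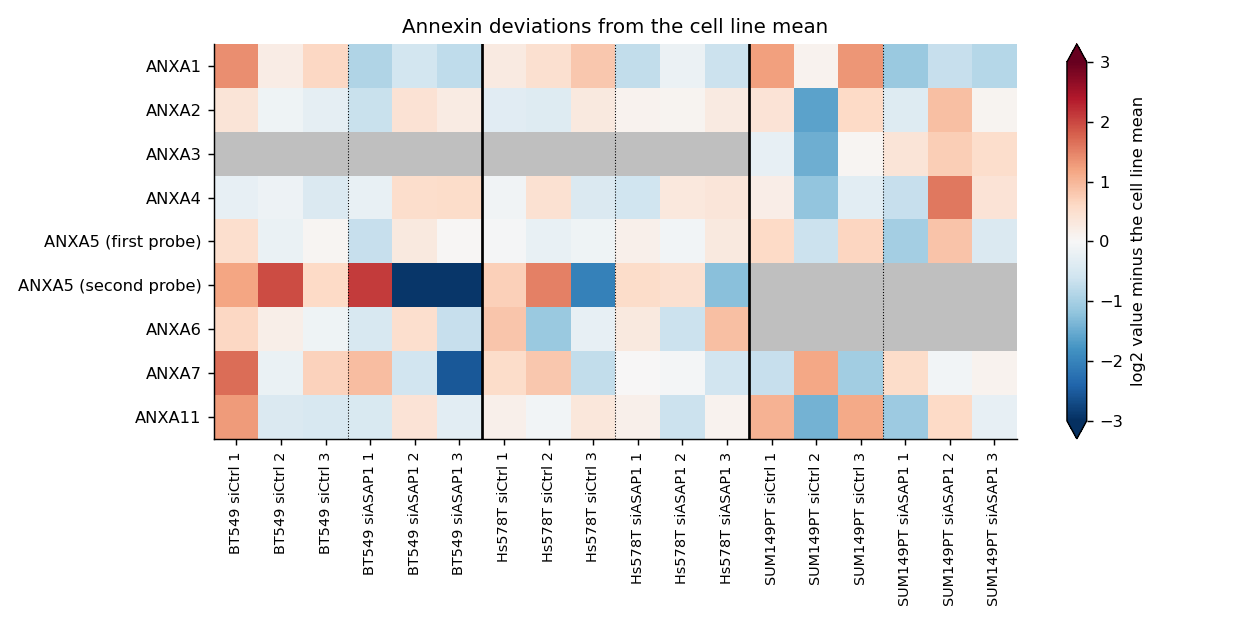
Deviation of each annexin probe from its cell line mean on the log2 scale in 18 libraries, blue below and red above the mean, with values beyond 3 drawn at the end of the scale and grey where a probe was not tested in the line. Solid lines part the cell lines and dotted lines the treatments. ANXA1 lies above the mean in siCtrl and below it in siASAP1 libraries of each line, but by only 0.095, close to white, in SUM149PT siCtrl 2. That library is blue in ANXA2, ANXA3, ANXA4, the first probe of ANXA5 and ANXA11.

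With the line means subtracted, the 5 probes most like ANXA1 over the 18 libraries were PNKD (Pearson correlation 0.976), VDAC1, a channel of the mitochondrial outer membrane (0.969), the centrin CETN2 (0.961), MALSU1, a factor of the mitochondrial ribosome (0.950), and APEX1, an endonuclease of base excision repair (0.944). Their Log2 FC over the 18 libraries lay between -1.80 and -0.72. The difference between siASAP1 and siCtrl was left in these values. A high correlation with ANXA1 and a fall after siASAP1 are thus not separate results, for these probes or for ASAP1. The median correlation over all probes tested was -0.047. Of the other annexins ANXA11 came closest, with 0.553, followed by the first probe of ANXA5 with 0.429, while ANXA4 (-0.245) and ANXA3 (-0.361) were below 0. ASAP1 had a correlation of 0.774 and ranked 187th (named after its value was seen). Without the SUM149PT library that goes against its label, 4 of the 5 probes were still the most like ANXA1 and APEX1 ranked 6th, and ANXA11 had 0.664.

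Between siCtrl libraries of the lines, 3 of the 8 annexins differed, with SUM149PT on 1 side each time. ANXA3 had a mean normalized count of 2371 ± 1102 in SUM149PT siCtrl libraries and 0 reads in all 3 BT549 siCtrl libraries, so that it was at least 920-fold higher against a floor of 3 reads per library. Against Hs578T, where 1 read was counted in the 3 siCtrl libraries, the ratio was 7341 with a counting interval from 1317 to 290000. ANXA6 averaged 57.1 ± 15.3 in BT549 and 72.2 ± 48.3 in Hs578T and was at least 14.5-fold and 18.3-fold higher there than in SUM149PT by the same floor. The first probe of ANXA5 averaged 6047 ± 1542 in BT549, 5138 ± 327 in Hs578T and 2210 ± 926 in SUM149PT. It was lower in SUM149PT, with a Log2 FC of -1.53 against BT549 and -1.32 against Hs578T. The adjusted p from limma was 4.55e-06 and 3.88e-06 for ANXA3, 0.00015 and 0.000111 for ANXA6, and 0.0215 and 0.0387 for ANXA5, so 3 of 8 annexins passed in each contrast beside 18.2% and 20.2% of all probes. ANXA3 met the minimum mean count over the siCtrl libraries only through SUM149PT, the line in which it was then tested as higher. ANXA6 met it only through BT549 and Hs578T. The p-values of ANXA3 and ANXA6 are thus no support beyond the counts themselves. The ANXA5 call against BT549 was lost without BT549 siCtrl replicate 1 (adjusted p 0.0726) or replicate 3 (0.0684), and that against Hs578T without SUM149PT siCtrl replicate 1, BT549 siCtrl replicate 2 or 3, or any of the Hs578T siCtrl replicates, with an adjusted p of up to 0.125. All 3 genes kept their calls without the SUM149PT library that goes against its label.

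The order of the lines was SUM149PT, Hs578T and BT549 for the mean of ANXA1 (83450, 59260 and 53790), and neighbours in that order did not differ beyond the spread. ANXA2 (21550, 15040 and 10030), ANXA4 (141, 80.9 and 63.4) and ANXA11 (508, 281 and 177) had their highest mean in Hs578T, the next in BT549 and the lowest in SUM149PT, with a Log2 FC of SUM149PT against Hs578T of -1.35, -1.20 and -1.88 and adjusted p of 0.1225, 0.114 and 0.0972. The ANXA11 contrast passed when all 18 libraries were in a single fit (adjusted p 0.0402). ANXA7 averaged 1715 in Hs578T, 798 in SUM149PT and 720 in BT549. Between Hs578T and BT549 none of the 8 annexins had an adjusted p under 0.05, or an unadjusted one, beside 13.9% of all probes with an adjusted p under 0.05. Without the SUM149PT library that goes against its label, ANXA7 was also lower in SUM149PT than in Hs578T (Log2 FC -1.98, adjusted p 0.031), and the second probe of ANXA5 passed in both contrasts (adjusted p 0.0125 against BT549 and 0.0104 against Hs578T).

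Of the other annexin loci, 7 of 10 listed symbols were in the table and 5 were tested over the 18 libraries, of which 0 had an adjusted p under 0.05 and 0 an unadjusted one. ANXA2P2 had a Log2 FC of 0.00 (-0.15 without the SUM149PT library that goes against its label) and varied between replicates as ANXA2 did (correlation 0.972 with group means subtracted). ANXA10 (0.89, 95% interval -0.45 to 2.23, and 0.68 without that library) was found mainly in Hs578T, while its SUM149PT counts were 0 in the 3 siCtrl libraries and 21.2, 8.97 and 11.8 after siASAP1. ANXA2R, a receptor proposed for ANXA2, had a Log2 FC of 0.50 (-0.93 to 1.94), and 0.97 without that library. ANXA8L1, which shares 81.2% of its windows of 50 bases with ANXA8, passed the limits upward in SUM149PT, where its mean was 2282 ± 533 (SD, n = 3) after siASAP1 and 880 ± 228 after siCtrl. The highest of its SUM149PT siCtrl values was in the library that goes against its label, without which the Log2 FC was 1.58 and still past the limits. ANXA13 had 0 reads in every library. ANXA9 was tested in SUM149PT alone, where its normalized counts were 0, 3.85 and 0 after siASAP1 and 7.15, 31.9 and 19.2 after siCtrl. Its Log2 FC of -3.38 (95% interval -6.82 to 0.07) did not pass the limits, though the groups did not overlap. It entered that fit through its siCtrl counts, the highest of them in the library that goes against its label. Between siCtrl groups ANXA8L1 and ANXA10 were higher in Hs578T than in BT549 (Log2 FC 4.10 and 5.34, limma adjusted p 0.000147 and 0.00129). ANXA8L1 was also higher in SUM149PT than in BT549 (4.21, limma adjusted p 8.17e-05). ANXA10 was lower in SUM149PT than in Hs578T (-6.95, limma adjusted p 0.000156), and its siCtrl mean was 2.92 in BT549 and 0 in SUM149PT. It met the minimum mean count over the siCtrl libraries only through Hs578T, so its p-values are no support beyond the counts. ANXA2R was lower in SUM149PT than in BT549 (-4.17, limma adjusted p 0.0416).

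The partners and pathways of the annexins were read from lists of 39 genes, all in the table. In the joint fit 30 of them were tested, and 0 passed 0.05 after adjustment by limma in either direction, beside 1.74% of all probes, with 6 of 31 probes at an unadjusted p under 0.05 beside 15.8% of all probes. Among the S100 proteins, the EF-hand partners of ANXA1, ANXA2 and ANXA11, S100A4 had a Log2 FC of -1.37 (95% interval -2.50 to -0.24, adjusted p 0.205), S100A6 0.14 and S100A10 -0.13. Among the penta-EF-hand and ESCRT proteins PDCD6, the ALG-2 protein that binds ANXA7 and ANXA11, had -0.57 (-0.96 to -0.17, adjusted p 0.132), sorcin (SRI) -0.62 and PDCD6IP -0.38.

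Among the membrane repair genes, the caveolar protein CAV1 passed the limits downward in BT549 (means 6767 after siASAP1 and 16560 after siCtrl, Log2 FC -1.17) and the caveolar ATPase EHD2 upward (56.4 and 13.8, 1.76), so that 2 of 28 genes tested passed there beside 6.97% of all probes, and 0 of 26 in Hs578T and 0 of 30 in SUM149PT. In the joint fit CAV1 had -0.73 (adjusted p 0.128), MYOF, a ferlin of membrane repair, 0.48 and EHD2 1.04. In the glucocorticoid axis the phosphatase gene DUSP1 had 0.93 (95% interval 0.36 to 1.495, adjusted p 0.0852), the receptor gene NR3C1 -0.50 (adjusted p 0.238) and TSC22D3 -1.18 (-2.84 to 0.48). Of the formyl peptide receptors and PLA2G4A, a phospholipase A2 gene, only PLA2G4A had enough reads to be tested, and by line only in SUM149PT (means 21.6 after siASAP1 and 38.7 after siCtrl, Log2 FC -0.98, -4.87 to 2.92). In BT549 and Hs578T its group means were between 0 and 2.57. In the joint fit the genes of phosphatidylserine exposure lay between -0.26 and 0.18, among them the flippase subunit TMEM30A (-0.18) and the scramblase genes PLSCR1 (0.17) and ANO6 (0.18). By line their median was -0.63 in BT549 (6 genes), 0.28 in Hs578T (5 genes) and 0.94 in SUM149PT (6 genes), with 0 past the limits in each.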

How the data were processed

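TempO-Seq reads were assigned to 21111 probes, and the authors deposited log2 values of the count divided by a DESeq2 size factor of the library, plus 1. The submitters' processing notes also name bcl2fastq and Bowtie, without versions, and the genome build is not given in the sources used here. Reads were recovered from the deposited log2 values as whole multiples of 1 step per library (100% of values up to 1000 reads within 0.1 of a whole number). Depth was 4633629 to 12488575 reads, which limits the annexin probes with few reads.

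Groups follow the labels. A probe entered a fit where its normalized counts averaged 10 or more, and was tested with limma 3.58.1 (lmFit and eBayes with trend) in R 4.3.3, per line on 6 libraries, over 18 libraries with the line as covariate, with the interaction, and between the 9 siCtrl libraries. P-values were adjusted by Benjamini-Hochberg over all probes tested. The text names every annexin probe, ASAP1, up to 3 probes per partner list with the smallest p over 18 libraries, and the 5 probes most like ANXA1, and others are said to be chosen after their values were seen. The members and lists were chosen with earlier results of these data known. The fits were also run on simulated counts, drawn independently for each probe with the same dispersion throughout. Real replicates varied together and unequally, so that run does not show how well the fits did here. The test of ANXA1 against the other annexins and the promoter motifs were added after the data were seen. Alternatives were scaling by library totals, quantile normalization, no filter, a minimum of 50, a pseudocount of 0.1, voom weights on recovered reads, probes of a symbol summed, a block for replicate number, 1 fit of the 6 groups, and each library left out in turn. Sequences came from RefSeq promoters of GRCh38.p14 (all 8 annexins matched) and GENCODE release 29 transcripts. Python 3.11.15, pandas 2.3.3 and matplotlib 3.10.9 were used for tables and figures.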

Additional observations from a re-analysis of the deposited data

Results flagged for a closer look

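The ANXA8L1 probe moved in opposite directions after siASAP1 in BT549 and SUM149PT. In BT549 its normalized counts were 14.2, 11.3 and 28.3 after siASAP1 and 61.1, 35.8 and 43.5 after siCtrl, a Log2 FC of -1.40, and in SUM149PT they were 2555, 1668 and 2623 against 716, 1141 and 782, a Log2 FC of 1.38. Every siASAP1 library lay below the siCtrl libraries in BT549 and above them in SUM149PT, while in Hs578T the groups overlapped. The difference between the lines had an unadjusted p of 0.00077 and an adjusted p of 0.196 from limma over all probes tested, so it did not pass. The highest SUM149PT siCtrl value, 1141, was in the library that goes against its label. The BT549 values rest on 12 to 62 reads, and how reads are split between ANXA8L1 and ANXA8 was not tested. ANXA10 had a smaller interaction p (0.000127 unadjusted and 0.103 adjusted, from limma), which did not pass either. Its BT549 and SUM149PT values rest on 0 to 16 reads per library.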

How the results depend on the processing

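The count of annexin genes past the limits was 1 in BT549 and became 2 with the replicate number as a block (ANXA7 added), and it ranged from 1 to 3 with each library left out. In Hs578T it was 1 and became 0 when libraries were scaled by their totals alone (ANXA1 at -0.92), with a range of 0 to 1. In SUM149PT it was 2 and became 1 with the block and with all 18 libraries in a single fit (ANXA3 lost in both), with a range of 1 to 3. The counts over 18 libraries (1), for the interaction (0) and between siCtrl groups were within 1.5 times in every alternative. ANXA1 kept its direction after siASAP1 in all of them, with an adjusted p between 0.00041 and 0.045 over the 18 libraries.

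Same-numbered libraries deviated together in Hs578T, where the correlation of their deviations from the group means was between 0.10 and 0.42, but not in BT549 (-0.39 to 0.14) or SUM149PT (-0.66 to -0.33), so the numbers were not taken to pair the libraries, and 8 of 18 libraries correlated best with their own number (6 of 6 in Hs578T, as a hint from the data and not from the design). With the block the limma adjusted p of ANXA1 was 0.045 over 18 libraries, 0.048 in Hs578T, 0.755 in BT549 and 0.983 in SUM149PT. ANXA11 then passed in SUM149PT against Hs578T siCtrl libraries (limma adjusted p 0.0428). The count of all probes past the threshold over 18 libraries was 182, with 34 under the block, 111 with no filter and 99 to 206 with each library left out. It was 674 in BT549 (325 to 2169 with each library left out), 264 in Hs578T (142 with a minimum of 50, 430 with no filter, 435 with the block, 158 to 634) and 963 in SUM149PT (351 with the block, 1551 with all 18 libraries in a single fit, 501 to 2325). For the interaction it was 1 (0 to 22 under other settings, and 1 to 26 with each library left out, the 26 without SUM149PT siCtrl replicate 2). Scaling by totals moved the median Log2 FC of all probes to 0.06 in BT549, 0.12 in Hs578T, 0.29 in SUM149PT and 0.14 over 18 libraries.

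Of 1287 values of single genes under the alternatives, 1214 kept direction and side of the threshold, 20 lost the call, 13 gained one and 40 changed sign, all of the last from values that did not pass. The 1287 include the adjusted p-values of the interaction, which have no direction and could not change sign. All of these kept their side of the threshold and are counted in the 1214. With each library left out, the Log2 FC ranged in BT549 from -0.20 to 0.35 for ANXA2, from -0.44 to 0.058 for the first ANXA5 probe and from -0.55 to 0.32 for ANXA11. In Hs578T it ranged from -1.19 to 0.58 for the second ANXA5 probe, from -0.10 to 0.87 for ANXA6 and from -0.15 to 0.36 for ANXA4. In SUM149PT it ranged from -0.31 to 0.80 for ANXA2, from -0.92 to 0.021 for the first ANXA5 probe and from -0.045 to 1.05 for ANXA7. Over 18 libraries it ranged from -0.26 to 0.012 for the first ANXA5 probe and from -0.19 to 0.0895 for ANXA6. Between siCtrl groups it ranged from -1.24 to 0.047 for ANXA11 and from -0.67 to 0.48 for ANXA7 (SUM149PT against BT549), and from -0.49 to 1.275 for the second ANXA5 probe, from -0.053 to 0.53 for ANXA1, from 0.00 to 0.49 for ANXA3 (which rests on 1 read against 0) and from -0.35 to 0.62 for ANXA6 (Hs578T against BT549). The change of ANXA1 minus that of the second ANXA5 probe ranged from -0.41 to 0.93. Scaling by totals gave 0.0059 for the first ANXA5 probe and 0.031 for ANXA6 over 18 libraries, -0.15 for ANXA7 in SUM149PT against BT549 and -0.043 for ANXA6 in Hs578T against BT549. Quantile normalization gave -0.20 for ANXA1 in Hs578T against BT549. Summing the probes of ANXA5, which replaces the second probe by the gene, gave 0.25 in Hs578T after siASAP1 and -0.20 in Hs578T against BT549.

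Groups of 3 libraries limit each line, and ANXA4, ANXA6 and the second ANXA5 probe also rest on few reads.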
